A study of Saccharomyces cerevisiae with 20 samples.

Results

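Meiosis and sporulation turn a starving diploid yeast cell into haploid spores, and their genes are kept almost silent while cells grow and divide. The 35 open reading frames (ORFs) described here belong to that programme. They were taken as a fixed list of systematic names, which covers recombination, the chromosome axis and its kinase, regulators and spore formation. They are 35 of 6706 ORF features and of 7127 deposited features in all. The question was whether ribosome footprints assigned to these ORFs stand above those of other ORFs of similar length, and whether they vary with strain.

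The data are 20 ribosome footprint libraries of budding yeast, Saccharomyces cerevisiae, with 2 in each of 10 groups; a footprint is the piece of RNA that an 80S ribosome shields from RNase I. All cultures were fmt1 yeast, a mutant of the yeast gene for methionyl-tRNA formyltransferase, that expressed EcFMT or its R42L form. EcFMT is the Escherichia coli enzyme that formylates the initiator methionyl-tRNA. Cells grew in SC medium at 30 °C to an A600 of about 0.5, a density of growing cells and not a sporulation condition.

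In 8 groups EcFMT or R42L was combined with a strain labelled RLI1_depl, NIP1_depl, hrc1D or arf1D. RLI1 encodes an ATPase that splits ribosomes after termination, and NIP1 a subunit of the initiation factor eIF3. The labels do not spell out "depl", hrc1D and arf1D, nor the remaining groups, MTF and MTFi. The strain set has no group without a second alteration, so arf1D served as the common comparator and is not a wild type. Nothing in the labels says whether a strain is haploid or diploid, or whether replicates are separate cultures. P-values therefore measure only the spread between these libraries, which may be technical.

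In meiosis, Spo11 and its partners cut the DNA, Dmc1 uses the ends to invade the homologous chromosome, and an axis of Red1, Hop1 and the cohesin subunit Rec8 holds the chromatids in loops. Ime1 starts the programme, the kinase Ime2 carries it on, and the transcription factor Ndt80 drives cells into the divisions and spore building. In growing cells most of these genes are repressed by Ume6 with its deacetylase partners, and the middle genes also by Sum1.

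The counts have a property that bears on every value below. Of all counts, 96.0% lay on 698 ORF features that RefSeq does not list, and 2 abundant genes show what this means. CDC19, which encodes pyruvate kinase, held 2 counts over the 20 libraries, against 854552.33 on YAL037C-B opposite it. PGK1, a glycolytic kinase gene, held 28 counts, against 428147.86 on YCR013C. No source used here states which strand the counting read. Whether a count on a meiotic ORF came from its own mRNA or from RNA of the other strand cannot be told apart in these tables. Library totals ran from 58089.8 to 505676.1 counts, with the smallest in RLI1_depl. The 2 MTF libraries differed from each other more than any other replicate pair (chi-square over its degrees of freedom 8.588, and 1.463 to 2.88 in the other pairs).

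The 35 members together held 3632.8 counts of 4993354.9, or 0.07275%. Their counts were very uneven, and 5 members held 54.0% of them. The splicing activator gene MER1 led with 615 counts, followed by NDT80 with 524.85 and SPO13 with 356. DMC1 held 234, SPO1 232, REC114 219.99, SMK1 191.99, ZIP2 190, MSH4 166 and SPO11 164.97. MEK1 had 160, SPO21 129 and REC102 105, so 13 members reached 100 counts. Next came DIT1 with 83, DIT2 with 63.98, HOP1 with 29, REC8 with 27, and SPO20 and RED1 with 26 each. ZIP1 held 21, MEI4 20, SPS1 18, and IME1 and CDA2 11 each.

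The remaining members held almost no counts. MND1 had 3 counts, and REC104, IME2, SSP1, CDA1 and SPR3 had 1 count each. MSH5, HOP2, HED1, SPS4 and IME4 had 0 in all 20 libraries, which allows each a share of up to 6.01e-05% of the counts. Known partners fell on both sides of this divide. Msh4 and Msh5 form one complex that stabilises crossover intermediates, yet MSH4 had 166 counts and MSH5 had 0. CDA1 and CDA2 encode the chitin deacetylases of the spore wall, and had 1 count and 11 counts. IME1 and IME2 act in sequence, with 11 counts and 1 count.

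Other ORFs of the same lengths mostly held fewer counts. The members are 489 to 2706 nt long, and 4378 other RefSeq ORFs lie within that range. At least 100 counts were reached by 37.1% of the members (13 of 35), against 5.25% of the other ORFs (230 of 4378). At least 20 counts were reached by 60.0% of the members, against 23.4% of the others. The median total was 26.0 for a member and 5.0 for another ORF. Having any count was about as common in both sets, at 85.7% and 81.5%. These shares are descriptions, since the list was drawn up with these data known.

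Each member was also set against the other RefSeq ORFs within 10% of its own length. None of the 587 ORFs close to NDT80 in length had as many counts as NDT80, and 0.217% of 460 did for MER1. The 13 members with at least 100 counts each exceeded more than 95% of their length-matched ORFs, the lowest being REC102 with 95.4%. This follows largely from the threshold, which 5.25% of other ORFs in the length range reached. At the other end, 11 members lay below the median of their length-matched ORFs, and MND1, the highest of them, exceeded 40.8% of its ORFs.

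**Figure D1:**
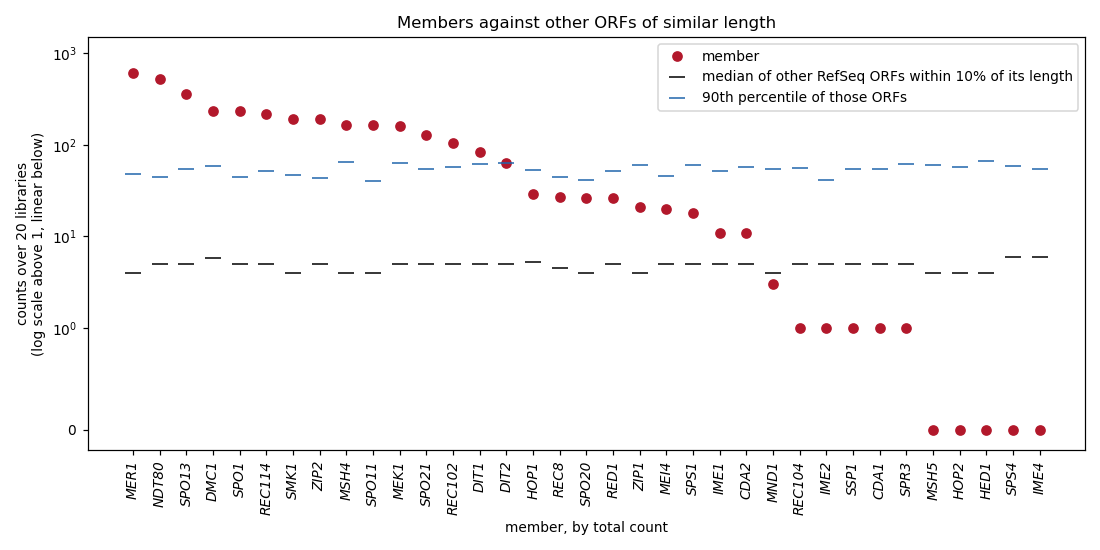
Total count of each of the 35 members over 20 libraries (red points, log scale above 1), with the median (black) and 90th percentile (blue) of other RefSeq ORFs within 10% of its length. The 13 leftmost members reach 100 counts and lie above the 90th percentile, while MND1 and the 10 members to its right lie below the median.

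The flanking RefSeq ORFs of the well-covered members held few counts. ORF features outside RefSeq, which held 96.0% of all counts, were left out of this comparison. Low neighbours therefore do not show that little RNA came from these loci. The 13 members with at least 100 counts have 26 flanking RefSeq ORFs, whose median was 2.135 counts and whose highest was 76. Each of the 13 exceeded both of its neighbours, which their choice by high counts favours, and 20 of the 26 neighbours had at most 10 counts. Of the other 22 members 6 exceeded both neighbours. Of the 44 neighbours of those 22, 29 had at most 10 counts (median 6.0), so low neighbours were not particular to the 13. None of the 35 members overlaps a RefSeq ORF on the other strand. MER1 (YNL210W) lies on chromosome XIV at 250931 to 251743, + strand of build R64, between MRX7 with 0 counts and the chaperone gene SSB2 with 1 count. NDT80 (YHR124W) lies on chromosome VIII at 356561 to 358444, + strand, between EPT1 with 15 counts and YHR125W with 2. SPO11 (YHL022C), on chromosome VIII at 62961 to 64157, - strand, had the best covered neighbours of the 13, NPR3 with 76.0 counts and AIM17 with 74.99.

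ORF features outside RefSeq sit opposite or beside a few members, by the order in their systematic names. HED1 had 0 counts while YDR015C of the other strand had 86. SPO1 had 232 counts while YNL013C had 41, and DIT2 had 63.98 while YDR401W had 18. The noncoding transcripts RME2 and RME3, antisense to IME4 and ZIP2, and IRT1, upstream of IME1, each had 0 counts in all libraries. The 421 features that are not ORFs held 0.0% of all counts, so these zeros say nothing about those transcripts in particular. Introns interrupt 7 members, namely DMC1, HOP2, MEI4, MND1, REC102, REC114 and SPO1. Of these, 4 reached 100 counts, while MEI4 had 20, MND1 3 and HOP2 0.

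Summed over the members, footprints took a share of the library that differed by strain far more than by replicate. In RLI1_depl the members held 258, 375.8, 184 and 335 counts, here and below in the order EcFMT replicates 1 and 2, then R42L replicates 1 and 2. NIP1_depl libraries held 438, 394, 324 and 305, hrc1D libraries 201, 188, 124 and 108, and arf1D libraries 70, 57, 49 and 52. As a share of each library's counts this was 0.3054% ± 0.019 in RLI1_depl, 0.2601% ± 0.0216 in NIP1_depl, 0.0712% ± 0.00234 in hrc1D and 0.01336% ± 0.000886 in arf1D (SD, n = 4 each). The ranges of the 4 strains did not overlap, though those of RLI1_depl (0.2787% to 0.3209%) and NIP1_depl (0.2339% to 0.2779%) nearly met. MTF libraries held 27 and 43 member counts, MTFi libraries 44 and 56, or 0.01022% ± 0.00218 and 0.01283% ± 0.00206 (SD, n = 2 each).

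The same order held for RefSeq ORFs as a whole. They took 18.2% of counts in RLI1_depl, 9.79% in NIP1_depl, 3.65% in hrc1D and 1.516% in arf1D. The RefSeq ORFs that overlap no RefSeq ORF of the other strand took 15.15%, 7.783%, 2.34% and 0.5557% in the same strains. The members' share therefore had the same order as that of RefSeq ORFs, but not in proportion to it. Members made up 1.693% of RefSeq ORF counts in RLI1_depl, 2.657% in NIP1_depl, 1.962% in hrc1D and 0.881% in arf1D.

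Per kb, members held 2.981 times the counts of the other RefSeq ORFs in RLI1_depl, 4.67 times in NIP1_depl, 3.382 times in hrc1D and 1.534 times in arf1D. MTF had a ratio of 1.318 and MTFi of 1.795. Against only the ORFs with no opposite RefSeq ORF, the ratio was 3.497 in RLI1_depl, 5.659 in NIP1_depl, 5.113 in hrc1D and 4.101 in arf1D. It was 3.6 in MTF and 4.682 in MTFi on that scale. By summed counts members were thus denser than other ORFs in every group on both scales. Without MER1, however, the first ratio was 0.849 in MTF. As means over genes, members had fewer counts per kb in arf1D (5.843 against 9.257), MTF (1.812 against 3.348) and MTFi (2.307 against 3.556). They had more than the other RefSeq ORFs in RLI1_depl, NIP1_depl and hrc1D. The place of arf1D also depended on the ORFs the members were set against. On the second scale RLI1_depl had the lowest ratio of the 4 strains, with libraries at 3.085 to 3.929.

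**Figure D2:**
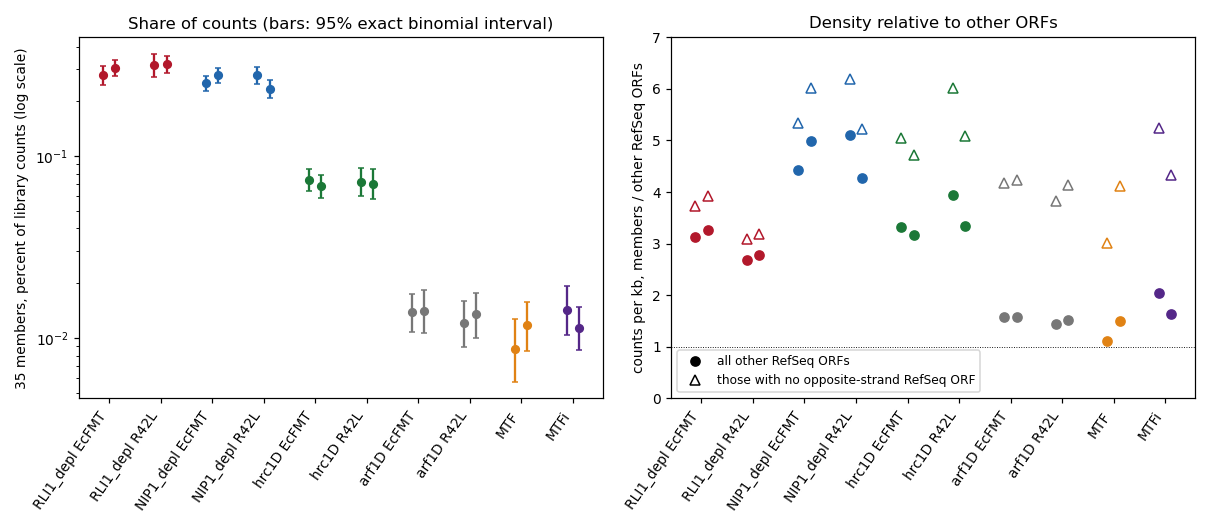
Left, the 35 members as percent of each library's counts on a log axis, 1 point per library with its 95% exact binomial interval (counting error only). Right, member counts per kb over those of other RefSeq ORFs, against all of them (filled) or those with no opposite RefSeq ORF (open); the filled points of arf1D lie near 1.5 and the open ones near 4.

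Roles divided the counts unevenly. The 5 regulators held 43.1% of member counts in RLI1_depl, 25.3% in NIP1_depl, 27.5% in hrc1D and 27.2% in arf1D. The 11 recombination genes held 21.1%, 25.2%, 32.7% and 26.3% in the same strains, and the 7 axis and synapsis genes 19.3%, 25.7%, 21.4% and 22.4%. The 12 spore formation genes held 16.5%, 23.8%, 18.4% and 24.1%. MER1 alone held 27.7% in RLI1_depl, 9.03% in NIP1_depl, 14.5% in hrc1D and 16.2% in arf1D.

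Strains were compared with edgeR's quasi-likelihood test on all 20 libraries, EcFMT and R42L averaged within a strain, with Benjamini-Hochberg adjustment over 1401 features. Only 16 of the 35 members passed the filter on low counts, and a member high in 1 strain could pass through that strain alone. In arf1D no member reached the filter's level, the highest being MER1 with 31.06 counts per 1000000 of the library total. All 16 passed through other groups in which they were higher, which favours calls above arf1D and leaves little room for calls below it. In RLI1_depl minus arf1D 9 of the 16 were called higher and 0 lower, where 73.2% of all features were called, 51.5% higher and 21.8% lower. For NIP1_depl minus arf1D 11 were called higher and 0 lower, against 62.2% of all features called, 40.4% higher and 21.8% lower. For hrc1D minus arf1D it was 9 higher and 0 lower, against 35.5% called, 18.7% higher and 16.8% lower. These 3 comparisons share the 4 arf1D libraries.

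These numbers depend on the scaling. With the TMM factors used here the median log2 change of all features was 1.75 for RLI1_depl, 1.19 for NIP1_depl and 0.37 for hrc1D, each minus arf1D. With RLE factors the medians were 2.65, 1.92 and 0.68, and with plain library totals 4.35, 3.15 and 1.30. Members called higher numbered 14, 15 and 11 with RLE, against 68.7%, 56.5% and 26.8% of all features higher and 14.5%, 15.5% and 13.2% lower. With library totals they numbered 16, 16 and 13, against 90.2%, 74.2% and 45.1% higher and 4.21%, 6.71% and 5.5% lower.

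A fit on the 914 kept RefSeq ORFs with no opposite RefSeq ORF, scaled over them, was added after seeing the data. It called 5 members higher and 2 lower in RLI1_depl minus arf1D, against 25.6% and 5.36% of those ORFs. For NIP1_depl it called 7 higher and 1 lower, against 20.1% and 3.72%, and for hrc1D 3 higher and 0 lower, against 5.91% and 1.53%. MSH4 and SPO11 were called higher than in arf1D in all 3 strains under that fit, while 13 of the 35 member calls of the 4 strain comparisons were lost.

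**Figure D3:**
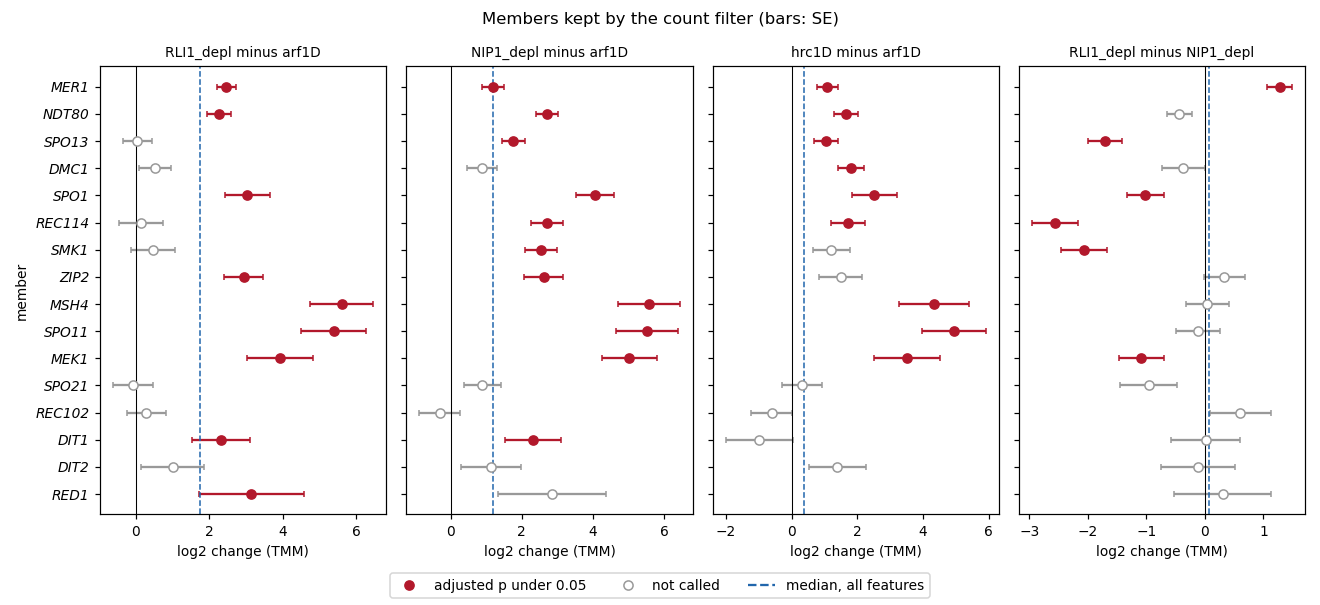
Log2 change (TMM scaling) with SE for the 16 members kept by the count filter, in 4 strain comparisons; filled red points have an adjusted p under 0.05 and the dashed line is the median of all features. RED1 is not drawn in hrc1D, where it had 0 counts; MER1 is the only member called higher in RLI1_depl than in NIP1_depl.

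Among the recombination genes, SPO11 encodes the nuclease that makes the double-strand breaks. It held 11, 21, 7 and 22.97 counts in RLI1_depl, 26, 20, 10 and 14 in NIP1_depl, and 11, 8, 7 and 6 in hrc1D, against 1, 0, 0 and 0 in arf1D. MTF and MTFi libraries had 0. Every library of the first 3 strains lay above every arf1D library. The mean was 157.5 ± 48.1 CPM (counts per 1000000 of the library total) in RLI1_depl, 120.8 ± 29.5 in NIP1_depl and 37.3 ± 5.52 in hrc1D, against 0.494 ± 0.989 in arf1D (SD, n = 4 each). All 3 differences were called, with edgeR adjusted p of 4.22e-09, 1.31e-09 and 2.66e-06. Since arf1D held 1 count, the fold rests on it: relative to ORFs with no opposite ORF, the pooled ratio to arf1D was 10.5 in RLI1_depl (95% exact counting interval 1.81 to 421), 14.9 in NIP1_depl (2.6 to 598) and 14.6 in hrc1D (2.43 to 593). Such intervals cover counting error only.

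MSH4 (YFL003C), on chromosome VI at 134521 to 137157, - strand, encodes the partner of Msh5 at crossover sites. Its counts were 21, 18, 10 and 22 in RLI1_depl, 24, 15, 17 and 14 in NIP1_depl and 11, 4, 3 and 4 in hrc1D, against 1, 0, 0 and 0 in arf1D. This pattern was like that of SPO11, with no overlap between arf1D and the other strains. The edgeR adjusted p was 2.62e-10 for RLI1_depl, 4.62e-10 for NIP1_depl and 0.000288 for hrc1D, each minus arf1D. Pooled ratios on the scale of ORFs with no opposite ORF were 12.0 (2.09 to 481), 14.9 (2.6 to 598) and 10.0 (1.62 to 413).

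REC114 (YMR133W), on chromosome XIII at 536207 to 537609, + strand, belongs with Mei4 to the complex that enables break formation. It had the largest log2 difference between RLI1_depl and NIP1_depl of the 16 members tested. It held 5, 5.99, 4 and 5 counts in RLI1_depl and 26, 43, 26 and 27 in NIP1_depl, while hrc1D had 25, 8, 9 and 5 and arf1D 6, 3, 2 and 2. The mean was 54.9 ± 9.73 CPM in RLI1_depl, against 220.5 ± 63.7 in NIP1_depl (SD, n = 4 each), with no overlap. REC114 was lower in RLI1_depl than in NIP1_depl by a log2 change of -2.56 (SE 0.39, edgeR adjusted p = 7.59e-10). It was higher in NIP1_depl than in arf1D by 2.704 (SE 0.45, adjusted p = 5.52e-09). Its rise in hrc1D over arf1D (1.71, adjusted p = 0.00434) was not called without hrc1D EcFMT replicate 1 (adjusted p = 0.117) or hrc1D R42L replicate 1 (0.0708), nor in the fit on ORFs with no opposite ORF (1.14, adjusted p = 0.202).

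DMC1 (YER179W), on chromosome V at 548421 to 549517, + strand, encodes the meiotic strand-exchange protein. It held 11, 12, 6 and 19 counts in RLI1_depl, 26, 9, 17 and 11 in NIP1_depl and 26, 24, 16 and 18 in hrc1D, against 7, 5, 6 and 4 in arf1D, so that every library had some. The mean was 125.4 ± 38.8 CPM in RLI1_depl, 110.6 ± 43.2 in NIP1_depl and 98.3 ± 13.1 in hrc1D, against 12.8 ± 1.94 in arf1D (SD, n = 4 each). In CPM the first 3 strains overlapped one another and lay above arf1D. After TMM scaling the lowest RLI1_depl (32.26) and NIP1_depl (33.52) libraries fell below the highest arf1D library (34.52). With TMM scaling only the hrc1D difference from arf1D was called (log2 1.80, SE 0.40, edgeR adjusted p = 4.59e-05). The others were 0.52 in RLI1_depl (adjusted p = 0.276) and 0.89 in NIP1_depl (adjusted p = 0.0558). Both were called with RLE factors (edgeR adjusted p = 0.000795 and 7.32e-05) and by DESeq2 (adjusted p = 0.0123 and 0.00338). Relative to ORFs with no opposite ORF both directions turned. The pooled ratio to arf1D was 0.369 in RLI1_depl (95% exact counting interval 0.219 to 0.642) and 0.611 in NIP1_depl (0.371 to 1.04). The log2 changes in that fit were -0.88 (edgeR adjusted p = 0.126) and -0.33 (adjusted p = 0.663), while hrc1D was still called (1.21, adjusted p = 0.0434).

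REC102, which encodes another part of the break machinery, was covered in all 4 strains. It held 13, 14, 9 and 3 counts in RLI1_depl, 13, 9, 2 and 5 in NIP1_depl and 5, 2, 3 and 4 in hrc1D, against 9, 4, 5 and 3 in arf1D. None of its changes was called in the TMM-scaled fit over all 1401 kept features. On the scale of ORFs with no opposite ORF its pooled ratio to arf1D was 0.314 in RLI1_depl, 0.295 in NIP1_depl and 0.303 in hrc1D, with intervals that lie below 1 (0.18 to 0.562, 0.162 to 0.544 and 0.143 to 0.626). By library total the same ratios were 8.36, 4.17 and 1.3, so its direction against arf1D depended on the scale.

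**Figure D4:**
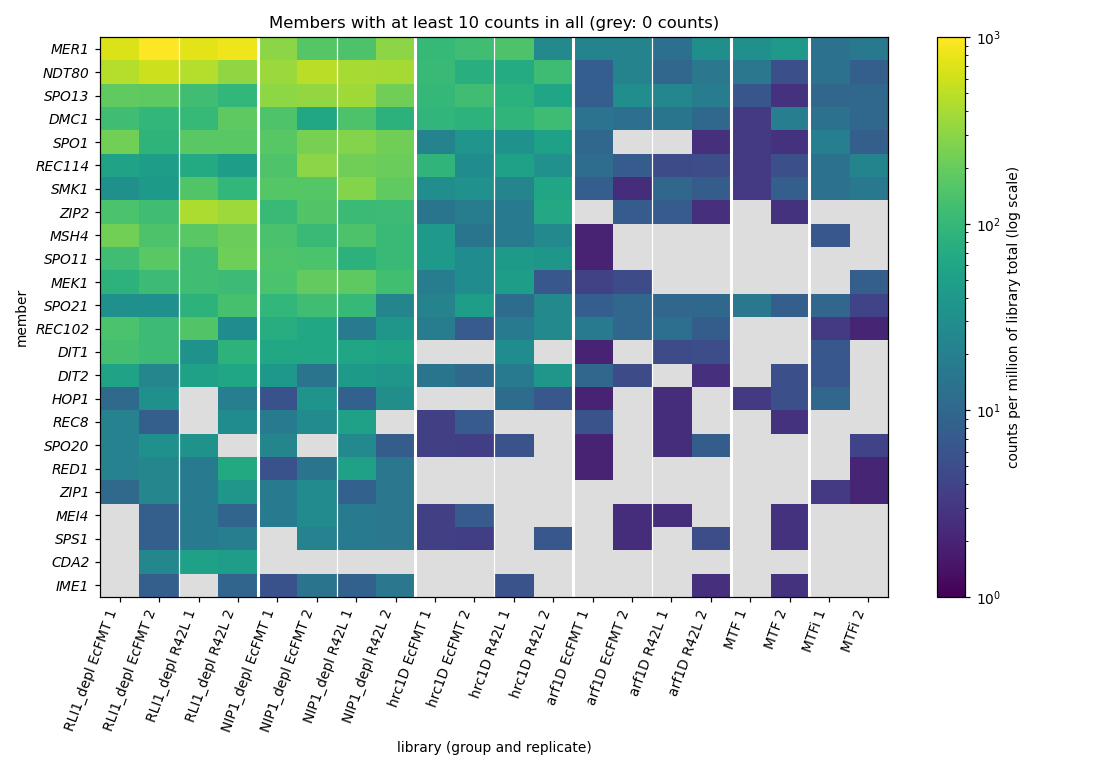
CPM (log colour scale) for the 24 members with at least 10 counts in all, by library; grey marks 0 counts. MER1 and NDT80 are brightest in RLI1_depl, SPO11 and MSH4 are grey in most arf1D and MTF libraries, and CDA2 has counts only in 3 RLI1_depl libraries.

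In the axis and synapsis group, MEK1 (YOR351C; chromosome XV, 995018 to 996511, - strand) encodes the kinase that steers breaks toward the homologue. It held 8, 14, 7 and 12 counts in RLI1_depl, 25, 27, 21 and 16 in NIP1_depl and 5, 8, 8 and 1 in hrc1D, against 2, 2, 0 and 0 in arf1D. Its mean was 108.9 ± 15.3 CPM in RLI1_depl, 159.1 ± 31.6 in NIP1_depl and 25.1 ± 17.0 in hrc1D, against 2.22 ± 2.6 in arf1D (SD, n = 4 each). In CPM every RLI1_depl, NIP1_depl and hrc1D library lay above every arf1D library. After TMM scaling hrc1D R42L replicate 2 (7.03) lay below both arf1D EcFMT libraries (9.12 and 11.76). The change over arf1D was 3.93 (SE 0.91, edgeR adjusted p = 3.84e-05) in RLI1_depl, 5.02 (SE 0.77, adjusted p = 3.63e-10) in NIP1_depl and 3.51 (SE 1.00, adjusted p = 0.00204) in hrc1D. Without hrc1D R42L replicate 1 the last was not called (adjusted p = 0.236), nor was it in the fit on ORFs with no opposite ORF (3.36, adjusted p = 0.063).

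ZIP2 (YGL249W; chromosome VII, 33098 to 35212, + strand) encodes a protein that starts synapsis. It held 13, 15, 25 and 38 counts in RLI1_depl, 19, 22, 13 and 15 in NIP1_depl and 4, 5, 3 and 10 in hrc1D, against 0, 3, 3 and 1 in arf1D. RLI1_depl libraries fell into a lower pair with EcFMT and a higher pair with R42L, from 121.7 to 430.4 CPM. Higher levels than in arf1D were called in RLI1_depl (log2 2.95, SE 0.54, edgeR adjusted p = 1.34e-07) and NIP1_depl (2.61, SE 0.55, adjusted p = 6.29e-06). The hrc1D change of 1.49 was not (adjusted p = 0.0647), though it was with RLE factors (adjusted p = 0.0144). In the fit on ORFs with no opposite ORF the NIP1_depl change of 1.43 was not called (adjusted p = 0.0631).

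SPO13 (YHR014W; chromosome VIII, 132047 to 132922, + strand) encodes a protein that keeps sister centromeres together in the first division. Its counts were 17, 22, 7 and 10 in RLI1_depl, 54, 46, 44 and 29 in NIP1_depl and 27, 33, 14 and 9 in hrc1D, against 4, 12, 10 and 7 in arf1D. NIP1_depl stood highest, at 308.3 ± 64.3 CPM, against 144.6 ± 43.4 in RLI1_depl, 89.9 ± 26.2 in hrc1D and 20.1 ± 9.38 in arf1D (SD, n = 4 each). The RLI1_depl and NIP1_depl libraries did not overlap, and RLI1_depl was lower by a log2 change of -1.70 (SE 0.30, edgeR adjusted p = 7.64e-08). Over arf1D the change was 1.75 in NIP1_depl (SE 0.32, adjusted p = 1.92e-07) and 1.06 in hrc1D (SE 0.37, adjusted p = 0.0133). In RLI1_depl it was 0.05 (adjusted p = 0.907). RLE factors and DESeq2 called RLI1_depl higher than arf1D (1.04, edgeR adjusted p = 0.00825, and 1.05, DESeq2 adjusted p = 0.0458), and the fit on ORFs with no opposite ORF called it lower (-1.35, edgeR adjusted p = 0.008). That fit did not call NIP1_depl (0.53, adjusted p = 0.3) or hrc1D (0.47, adjusted p = 0.562). The hrc1D call was lost without arf1D EcFMT replicate 1 (adjusted p = 0.203), arf1D R42L replicate 2 (0.0548), hrc1D EcFMT replicate 2 (0.0549) or hrc1D R42L replicate 1 (0.128).

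RED1 (YLR263W; chromosome XII, 670340 to 672823, + strand), which encodes the axis core, had few counts. It held 2, 3, 1 and 7 in RLI1_depl, 1, 2, 6 and 2 in NIP1_depl, 0 in every hrc1D library, and 1, 0, 0 and 0 in arf1D. Its RLI1_depl change over arf1D was called at an edgeR adjusted p of 0.0386, but not without arf1D EcFMT replicate 2 (0.0913), arf1D R42L replicate 1 (0.11) or 2 (0.0994), RLI1_depl EcFMT replicate 1 (0.0669) or 2 (0.0926), or RLI1_depl R42L replicate 2 (0.245). DESeq2 did not call it either (adjusted p = 0.091), nor did the fit on ORFs with no opposite ORF (edgeR adjusted p = 0.318). HOP1, REC8 and ZIP1, the other structural genes of the axis and synapsis, had 29, 27 and 21 counts and did not pass the filter.

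The regulators NDT80 and MER1 were the best covered members. NDT80 held 43, 72.85, 27 and 33 counts in RLI1_depl, 62, 70, 47 and 52 in NIP1_depl and 29, 21, 12 and 18 in hrc1D, against 4, 9, 4 and 6 in arf1D. MTF had 5 and 2, and MTFi 4 and 4. The mean was 459.2 ± 113.0 CPM in RLI1_depl, 412.6 ± 58.3 in NIP1_depl and 92.5 ± 23.0 in hrc1D, against 13.9 ± 6.43 in arf1D (SD, n = 4 each), and none of the first 3 strains overlapped arf1D. NDT80 was higher than in arf1D in RLI1_depl (log2 2.27, SE 0.33, edgeR adjusted p = 2.26e-11), NIP1_depl (2.701, SE 0.31, adjusted p = 3.22e-17) and hrc1D (1.65, SE 0.36, adjusted p = 3.75e-05). In the fit on ORFs with no opposite ORF it was called in NIP1_depl (1.49, adjusted p = 0.00116), but not in RLI1_depl (0.86, adjusted p = 0.0798) or hrc1D (1.06, adjusted p = 0.0995). The pooled ratio of RLI1_depl to arf1D on that scale was 1.29 (0.836 to 2.1). RLI1_depl and NIP1_depl overlapped and differed by -0.43 (SE 0.22, adjusted p = 0.0947).

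MER1 encodes a splicing activator for introns of meiotic transcripts. It held 64, 123, 44 and 88 counts in RLI1_depl, 53, 23, 17 and 39 in NIP1_depl and 28, 33, 25 and 4 in hrc1D, against 11, 9, 5 and 12 in arf1D. MTF had 10 and 15, and MTFi 4 and 8. Its level of 822.5 ± 133.0 CPM in RLI1_depl was set apart from 227.6 ± 85.3 in NIP1_depl, 98.6 ± 51.4 in hrc1D and 21.8 ± 7.65 in arf1D (SD, n = 4 each). RLI1_depl was higher than NIP1_depl by a log2 change of 1.28 (SE 0.21, edgeR adjusted p = 1.37e-08) and than arf1D by 2.47 (SE 0.27, adjusted p = 1.97e-19). The NIP1_depl change over arf1D was 1.19 (SE 0.30, adjusted p = 0.000188), but -0.03 in the fit on ORFs with no opposite ORF. The hrc1D change of 1.08 (adjusted p = 0.00338) was not called without hrc1D R42L replicate 1 (adjusted p = 1) or arf1D R42L replicate 1 (0.0692), nor in the fit on ORFs with no opposite ORF (0.51, adjusted p = 0.492).

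IME1, the master activator, had 11 counts in all. IME2 had 1 and IME4, an RNA methyltransferase gene needed for entry into meiosis, had 0. The counts on regulators were therefore those of the later-acting NDT80 and of MER1.

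Of the spore formation genes, SMK1 (YPR054W; chromosome XVI, 666280 to 667446, + strand) encodes the MAP kinase of spore wall assembly. It held 3, 5, 9 and 10 counts in RLI1_depl, 28, 23, 31.99 and 24 in NIP1_depl and 8, 9, 4 and 9 in hrc1D, against 4, 1, 4 and 3 in arf1D. The mean was 80.9 ± 56.8 CPM in RLI1_depl and 195.2 ± 53.8 in NIP1_depl (SD, n = 4 each), and their ranges did not overlap. RLI1_depl was lower than NIP1_depl by a log2 change of -2.06 (SE 0.40, edgeR adjusted p = 1.29e-06). NIP1_depl was higher than arf1D by 2.54 (SE 0.46, adjusted p = 1.24e-07), while the changes of 0.48 in RLI1_depl (adjusted p = 0.456) and 1.21 in hrc1D (adjusted p = 0.075) were not called with TMM scaling. With RLE factors both were called higher (adjusted p = 0.0161 and 0.0135). In the fit on ORFs with no opposite ORF RLI1_depl changed by -0.91 (adjusted p = 0.231).

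SPO1 (YNL012W; chromosome XIV, 609686 to 611665, + strand) encodes a phospholipase-like protein needed for spores. It held 21, 11, 10 and 18 counts in RLI1_depl, 29, 34, 32 and 29 in NIP1_depl and 6, 10, 6 and 8 in hrc1D, against 5, 0, 0 and 1 in arf1D. No arf1D library reached the level of any library of the other strains. It was called higher than in arf1D in RLI1_depl (log2 3.04, SE 0.61, edgeR adjusted p = 2.36e-06), NIP1_depl (4.05, SE 0.54, adjusted p = 3.77e-13) and hrc1D (2.52, SE 0.68, adjusted p = 0.00106). With only ORFs that have no opposite ORF, SPO1 was called in NIP1_depl (2.90, adjusted p = 4.77e-05), but not in RLI1_depl (1.70, adjusted p = 0.0511) or hrc1D (1.99, adjusted p = 0.078).

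DIT1 (YDR403W; chromosome IV, 1274602 to 1276212, + strand) and DIT2 are divergent neighbours whose products make the dityrosine of the outer spore wall. DIT1 held 12, 14, 2 and 9 counts in RLI1_depl, 11, 9, 7 and 7 in NIP1_depl and 0, 0, 5 and 0 in hrc1D, against 1, 0, 2 and 2 in arf1D. It was called higher than in arf1D in RLI1_depl (log2 2.33, SE 0.78, edgeR adjusted p = 0.00526) and NIP1_depl (2.31, SE 0.78, adjusted p = 0.00569). The RLI1_depl call was lost without RLI1_depl R42L replicate 2 (adjusted p = 0.132). Neither call held in the fit on ORFs with no opposite ORF (1.00, adjusted p = 0.358, and 1.17, adjusted p = 0.343). DIT2 changed by 1.01, 1.13 and 1.39 in RLI1_depl, NIP1_depl and hrc1D, with adjusted p of 0.281, 0.239 and 0.217.

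SPO21, which encodes a part of the spindle pole body plaque where spore membranes start, held 3, 4, 5 and 14 counts in RLI1_depl, 17, 17, 12 and 3 in NIP1_depl and 6, 13, 2 and 4 in hrc1D, against 4 in each arf1D library. No change from arf1D was called with TMM scaling. The fit on ORFs with no opposite ORF called it lower in RLI1_depl than in arf1D (-1.45, edgeR adjusted p = 0.0442). CDA2 is named because of its values: its 11 counts were 3 in RLI1_depl EcFMT replicate 2 and 3 and 5 in the RLI1_depl R42L libraries, with 0 elsewhere.

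RLI1_depl and NIP1_depl can be set against each other without arf1D. With TMM scaling 6 of the 16 tested members were called, 1 higher and 5 lower in RLI1_depl, where 42.7% of all features were called, 23.8% higher and 18.9% lower. MER1 was higher, and REC114, SMK1, SPO13, SPO1 and MEK1 were lower. For SPO1 the log2 change was -1.02 (SE 0.32, edgeR adjusted p = 0.00516), and for MEK1 -1.09 (SE 0.38, adjusted p = 0.0133). The SPO1 call was lost without NIP1_depl EcFMT replicate 2 (adjusted p = 0.0627) or RLI1_depl EcFMT replicate 2 (0.116). The MEK1 call was lost without NIP1_depl EcFMT replicate 2 (0.0859), NIP1_depl R42L replicate 1 (0.101), RLI1_depl EcFMT replicate 1 (0.0655) or RLI1_depl R42L replicate 2 (0.0679).

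MER1 higher and REC114, SMK1 and SPO13 lower were called also with library totals, with DESeq2 and in the fit on ORFs with no opposite ORF. With library totals REC102 and ZIP2 were called higher too, and SPO1 and MEK1 were not called, for a split of 3 higher and 3 lower, against 41.3% and 8.92% of all features. In the fit on ORFs with no opposite ORF it was 1 higher and 6 lower, against 21% and 14.2% of those ORFs, SPO21 being added. SPO11 (-0.11, SE 0.38, adjusted p = 0.84) and MSH4 (0.04, SE 0.36, adjusted p = 0.937) were not called.

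**Figure D5:**
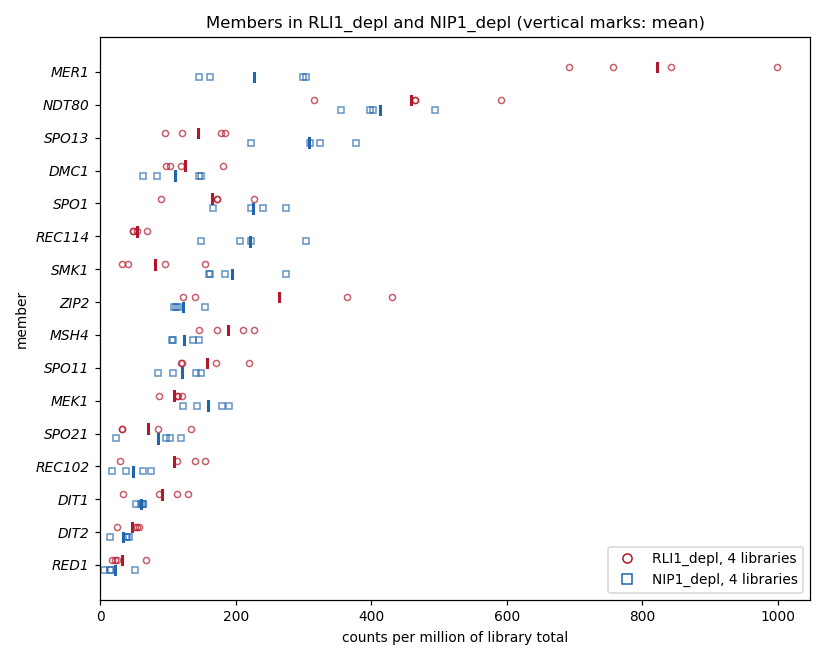
CPM in the 4 RLI1_depl (circles) and 4 NIP1_depl (squares) libraries for the 16 members kept by the filter, with vertical marks at the means. MER1 lies higher in every RLI1_depl library, and REC114, SMK1 and SPO13 lie higher in every NIP1_depl library.

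The comparison the study's strains share is EcFMT against R42L. The members' share of counts was 0.2919% ± 0.0187 with EcFMT and 0.3189% ± 0.0029 with R42L in RLI1_depl, and 0.2643% ± 0.0192 and 0.2558% ± 0.031 in NIP1_depl. It was 0.07117% ± 0.00386 with EcFMT and 0.07123% ± 0.00122 with R42L in hrc1D, and 0.01395% ± 0.000163 and 0.01277% ± 0.000969 in arf1D (SD, n = 2 each). The libraries of the forms overlapped in NIP1_depl and hrc1D. They did not overlap in RLI1_depl, where R42L was higher, or in arf1D, where EcFMT was higher. Set against RefSeq ORFs the RLI1_depl order turned: with EcFMT the members made up 1.82% ± 0.0566 of RefSeq counts, against 1.565% ± 0.0375 with R42L (SD over 2 libraries), where RefSeq ORFs took 16.02% and 20.38% of all counts.

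No member was called between EcFMT and R42L by edgeR in any strain, nor in the mean of the 4 strains. At an unadjusted p under 0.05 there were 5 members of 16 in RLI1_depl, 0 in NIP1_depl, 1 in hrc1D, 1 in arf1D and 2 in the mean. DESeq2 called 0 members in each. Of all features edgeR called 3.21% in RLI1_depl (2.57% higher and 0.642% lower), 0.357% in the mean of 4 strains and 0 in NIP1_depl, hrc1D and arf1D. In RLI1_depl ZIP2 had the lowest unadjusted p, with a log2 change of -1.30 (SE 0.48, edgeR adjusted p = 0.122). It was called lower with EcFMT when library totals replaced TMM (-1.61, adjusted p = 0.0331, where 0.785% of all features were higher and 2% lower) or when the fit held the RLI1_depl libraries alone (-1.43, adjusted p = 0.00704). NDT80 changed by 0.78 in RLI1_depl (SE 0.32, adjusted p = 0.204). A test of whether the 4 differences are equal rejected equality for 0 of the 16 members, against 10 of 1401 features. DIT1 was the nearest member (edgeR adjusted p = 0.339).

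Between MTF and MTFi 0 of 16 members were called by edgeR and 0 by DESeq2, against 1.71% of all features by edgeR (0.286% higher and 1.43% lower). At an unadjusted p under 0.05 there were 4, namely MER1 (log2 1.18, edgeR adjusted p = 0.407), REC114 (-2.12, 0.325), SPO1 (-2.11, 0.481) and MEK1 (-4.49, 0.462). MEK1 had 0 counts in both MTF libraries and 0 and 4 in the MTFi libraries. The split of all features called turned with the scaling, from 4 higher and 20 lower with TMM to 31 and 12 with RLE, 20 and 19 with library totals and 24 and 6 with DESeq2. The libraries held 27 to 56 member counts each.

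Further genes of the same biology were listed apart from the members. Of 16 other meiosis genes, 4 passed the filter. All 4 were called higher in RLI1_depl than in arf1D, 2 in NIP1_depl and 1 in hrc1D. Of all features 51.5%, 40.4% and 18.7% were called higher. As with the members, a gene could pass the filter through a strain where it was high, which favours calls above arf1D. SPO22, which encodes a synapsis protein that works with Zip2, held 172 counts in RLI1_depl, 170 in NIP1_depl and 75 in hrc1D, against 40 in arf1D. Its changes of 1.51 in RLI1_depl (edgeR adjusted p = 8.8e-07) and 1.48 in NIP1_depl (adjusted p = 1.79e-06) were called. GMC1 held 32, 20 and 9 counts in those strains, against 0 in arf1D. SPO74 held 39.76 in RLI1_depl, against 3 in NIP1_depl and 0 in hrc1D and arf1D, and HFM1, a crossover helicase gene, 33, 17 and 8, against 6 in arf1D.

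Of 24 other spore formation genes, 8 passed the filter, which favours calls above arf1D here too. Of the 8, 5 were called higher in RLI1_depl than in arf1D, 3 in NIP1_depl and 3 in hrc1D, with 0 lower. The shares of all features called higher are those given above. ADY4, a spindle pole body gene, held 50 counts in RLI1_depl, 84 in NIP1_depl and 15 in hrc1D, against 0 in arf1D. SPS19 held 58.13, 59 and 27, against 9 in arf1D, and GAS4, a spore wall glucan enzyme gene, 53, 67 and 11, against 11. Per kb and relative to ORFs with no opposite ORF, both lists were less dense than the 35 members, at 2.18 (meiosis) and 1.60 (spore formation) in RLI1_depl and 2.14 and 2.11 in NIP1_depl.

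Genes listed as regulators of entry into meiosis in growing cells were sparse, with 303.4 counts over 12 genes. RIM4, an RNA-binding inhibitor of translation in meiosis, had 250 of them and was the 1 gene that passed the filter. What follows is thus a result for RIM4 and not for the list. It held 167 counts in RLI1_depl, 35 in NIP1_depl and 18 in hrc1D, against 14 in arf1D. Like MER1 it was called higher in RLI1_depl than in NIP1_depl (log2 2.23, SE 0.34, edgeR adjusted p = 3.73e-10) and than in arf1D (2.93, SE 0.41, adjusted p = 3.27e-12). The genes of the members' repressors, named here for that role, had few counts, as had most RefSeq ORFs (median 4.92 outside the members). UME6 had 1 count, SIN3 1, RPD3 0 and UME1 3, while SUM1 had 10, RFM1 6.43 and HST1 13. Since CDC19 held 2 counts, a low count here does not tell low expression.

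Mating genes, which haploid cells express, were set beside the members as markers of cell type. The 17 held 359 counts over all libraries, with STE4, MFA2 and the alpha-factor gene MF(ALPHA)1 at 0. Summed, they ranged from 302.4 to 430.4 CPM in RLI1_depl, 120.0 to 263.4 in NIP1_depl, 40.0 to 116.3 in hrc1D and 12.3 to 33.7 in arf1D. Their order across the strains was that of the members, and their density against ORFs with no opposite ORF was 1.15 in RLI1_depl and 1.93 in arf1D. STE18, which encodes the G protein gamma subunit, was called higher in RLI1_depl than in NIP1_depl (43 against 7 counts; log2 2.52, edgeR adjusted p = 0.000732) and than in arf1D (43 against 1). BAR1, with 158 of the counts, was called higher in NIP1_depl than in arf1D (64 against 20; log2 1.03, edgeR adjusted p = 0.0406). From NIP1_depl to RLI1_depl BAR1 (-0.65) and HO (-1.57) went down and SAG1 (1.70) went up, none of them called. The part that cell type had in the members' counts was not tested.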

How the data were processed

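Ribosome footprint libraries were analysed from gene tables that hold expected counts, which the authors deposited without scaling for depth. Per the submitters' processing notes, reads were handled with STAR 2.7.2b and RSEM 1.2.31 on build R64, and no source used here states a strand setting. Totals, shares and counts per kb were computed on unrounded values with pandas 2.3.3. All counts lay on the 6706 ORF features, and 421 other features held 0.0% of them. RefSeq's table for R64 gave positions and overlaps for 6008 of the ORF features. For the tests, expected counts were rounded and fitted with edgeR 4.0.16 in R 4.3.3 (quasi-likelihood, robust, TMM factors of 0.362 to 3.335). The fit held all 20 libraries with 1 mean per group and 10 residual degrees of freedom, and kept 1401 features with filterByExpr at a minimum count of 10. Adjustment over those features followed Benjamini and Hochberg, and a call is an adjusted p under 0.05. SE was taken as the size of the log2 change over the root of the F statistic. In counts simulated with the same spread for every feature, fitted and true changes were correlated among the better covered features. Most members have fewer counts than those, so the simulation says little about them. Shares carry exact binomial intervals and pooled ratios exact 95% intervals, both for counting error only, and a count of 0 is read as up to 3 counts.

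There were 10 comparisons, namely each of 3 strains minus arf1D, RLI1_depl minus NIP1_depl, EcFMT minus R42L in the 4 strains and in their mean, and MTF minus MTFi. Values are given for the 10 members with most counts and for each member called, and list genes are named where called, by smallest adjusted p. The members and lists were chosen with earlier results of these data known. Alternatives were RLE factors, library totals, no filter, DESeq2 1.42.0, all features, fewer libraries, a replicate block and other ORFs for comparison. Replicate numbers did not pair libraries: the same-number correlations of deviations from group means were -0.198 to 0.147 in 5 sets over 389 features.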

Additional observations from a re-analysis of the deposited data

How the results depend on the processing

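Counts of called members moved by more than 1.5 times with RLE factors for RLI1_depl minus arf1D (14), with library totals there (16) and for EcFMT minus R42L in RLI1_depl (1, ZIP2, against 0), and in the fit on RefSeq ORFs with no opposite ORF for hrc1D minus arf1D (3). That fit, chosen after seeing the data, tested 914 ORFs in place of 1401 and called 283 of them in RLI1_depl minus arf1D, 218 in NIP1_depl minus arf1D, 68 in hrc1D minus arf1D and 322 in RLI1_depl minus NIP1_depl. It called 0 in EcFMT minus R42L in RLI1_depl, 0 in the mean of 4 strains and 0 in MTF minus MTFi. It turned MER1 in NIP1_depl minus arf1D to a log2 change of -0.033, and of the 35 member calls 21 held, 13 were lost and 1 turned; the cause was not tested. DESeq2 called 308 features in RLI1_depl minus NIP1_depl, against 598 with edgeR. For MTF minus MTFi, RLE factors gave 43 called features (31 higher and 12 lower) and library totals 39 (20 and 19), against 24 with TMM (4 and 20). Without the filter 10 were called in EcFMT minus R42L in RLI1_depl, 1 in the mean of 4 strains and 9 in MTF minus MTFi, over more features tested (5342).

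Fits on the compared libraries alone called 69 features and 1 member (ZIP2) in EcFMT minus R42L in RLI1_depl, 1 feature in NIP1_depl and 25 in the mean of 4 strains; in arf1D they kept 0 members. With the replicate block, EcFMT minus R42L gave 1 called feature in NIP1_depl, 1 in hrc1D and 12 in the mean of 4 strains, and the block kept 34 of 35 member calls, RED1 being lost. The crossed replicate block, also added later, gave 1, 1 and 3, and kept all 35. Leaving out 1 library gave 11 to 19 called features for EcFMT minus R42L in RLI1_depl, 0 to 1 in NIP1_depl, 0 to 2 in hrc1D, 0 to 1 in arf1D and 0 to 7 in their mean, and 16 to 38 in MTF minus MTFi. Over 280 such repeats of the member calls 258 held and 22 were lost, with none turned.

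With RefSeq ORFs as denominator the members' share was 1.693% in RLI1_depl, 2.657% in NIP1_depl, 1.962% in hrc1D, 0.881% in arf1D, 0.7508% in MTF and 1.059% in MTFi. The mean density ratio against ORFs with no opposite ORF was 3.483, 5.692, 5.219, 4.093, 3.558 and 4.778 in those groups. Without MER1, the member with most counts, the share was 0.2231%, 0.2373%, 0.06134% and 0.01118% in the 4 strains and 0.006562% in MTF, and the ratio 2.194 in RLI1_depl, 3.008 in hrc1D, 1.301 in arf1D and 0.8493 in MTF. Against ORFs within the members' length range it was 4.504 in hrc1D, 3.239 in arf1D, 2.753 in MTF and 3.734 in MTFi. With medians in place of sums it was 4.632 in RLI1_depl and 9.609 in NIP1_depl, and no value could be had elsewhere, where the median of other ORFs was 0. In arf1D, MTF and MTFi the 35 members together had 27 to 70 counts per library.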
